A study of Mus musculus with 36 samples.

Results

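Histone genes were examined in tibiae of mice that model the premature ageing disease Hutchinson-Gilford progeria, as 70 protein-coding genes out of 56246 genes in the table. They were chosen by name alone, as symbols that begin with Hist1h, Hist2h, Hist3h, Hist4h, H1f, H2af, H2ac, H2bc, H3c, H3f or H4c. Of these, 64 were classed as replication-dependent histone genes, with 6 for H1, 17 for H2A, 17 for H2B, 12 for H3 and 12 for H4, and 54 of the 64 lie in the clusters of chromosome 13 and 10 on chromosome 3. The other 6 were classed as replacement histone genes, namely *H3f3a*, *H3f3b*, *H1f0*, *H1f10*, *H1f7* and *H1f8*. The classes were set by symbol, and whether each gene is read only in S phase was not tested. A mean of at least 0.5 TPM (a transcript level scaled to gene length and to the total of the library) was reached by 63 members, 59 replication-dependent and 4 replacement, and only these were tested. The symbols in use put other histone genes, such as the variants *H2az1* and *H2ax*, outside the names searched, and 9 of them are described separately.

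Each of the 3 groups held 12 mice of 6 months of age, 6 males and 6 females. WT mice were wild-type and not treated. Saline-treated and ABE-treated mice were *LMNA* G/G, which carry on each of a pair of chromosomes a human *LMNA* transgene with the progeria mutation, inserted as a bacterial artificial chromosome beside the mouse's own *Lmna* genes, and these received saline or ABE by retro-orbital injection at P14, which is day 14 of life. The adenine base editor, ABE, was carried by a pair of AAV9 vectors and was designed to revert the mutant base of the transgene. WT mice were not injected, so that an effect of injection and the effect of the transgene cannot be told apart in saline-treated against WT mice, and WT mice carry mouse numbers of a separate series, so that a batch behind that series cannot be told apart from genotype either. The bones were taken without epiphyses and marrow and so were mostly cortical bone. In the labels, 3 of the 24 *LMNA* G/G mice have the letters WT inside their mouse number. The osteocyte gene *Sost* ran from 2.59 to 15.8 (median 6.85) in WT, from 66.8 to 199 (median 115) in saline-treated and from 81.4 to 141 (median 122) scaled TPM in ABE-treated mice, so each *LMNA* G/G library, those 3 included, stood apart from each WT library.

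Histones are the proteins on which DNA is wound. H2A, H2B, H3 and H4 build the nucleosome core and H1 binds the linker DNA between cores. Replication-dependent genes mostly have no introns, are read in S phase when new DNA must be packaged, and give mRNA that ends in a stem loop held by the stem-loop binding protein in place of a poly(A) tail. Replacement genes are read through the whole cell cycle and in cells that no longer divide, and their mRNA carries a poly(A) tail. The libraries were described as made from poly(A)-selected RNA, so most mRNA of the first class would enter them only by carry-over or as the minority of transcripts with a tail, and its level here is a level within these libraries. Even so, this class took 0.0989 to 2.26 percent of reads on genes, beside 0.0241 to 0.0894 percent for the replacement genes. How its mRNA entered the libraries was not tested.

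The stem loop is the feature that separates the classes, and it was read from the transcript sequences of GENCODE vM21 (GRCm38), in which all 70 members have the identifier and version used in the table. The letters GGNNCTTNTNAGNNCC, on the transcript strand, were found in the transcripts of 43 of 70 members and of 136 of 21901 protein-coding genes in all (0.621%). The 6 replacement genes did not hold them. Of the replication-dependent genes, *H2bc4*, *H2bc6*, *Hist1h2bq* and *Hist1h2br* have 2 exons in this annotation and the other 60 have 1. Of the replication-dependent genes, 23 have a gene model that ends within 100 bases of the loop, 20 have a model that runs at least 100 bases past it, 11 have a model of the coding region alone and 10 have another model without these letters. The loops of 5 members that the results turn on are shown with 5 bases on each side, the loop in capitals, as DNA in the direction of the transcript.
H4c8, an H4 gene of high level, chr13:23531453-23531478, + strand: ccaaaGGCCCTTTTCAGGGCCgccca
H4c6, an H4 gene of high level, chr13:23551286-23551311, - strand: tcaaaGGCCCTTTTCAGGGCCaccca
H3c3, an H3 gene of high level, chr13:23745042-23745067, - strand: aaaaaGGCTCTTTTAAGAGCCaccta
H1f2, whose model runs 840 bases past the loop, chr13:23739507-23739532, + strand: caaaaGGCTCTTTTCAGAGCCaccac
H3c15, 1 of 2 genes of the class with a negative difference from WT in saline-treated mice, chr3:96238480-96238505, - strand: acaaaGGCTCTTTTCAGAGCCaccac
The loop of *H1f2* is letter for letter that of *H3c15*, and the loops of the H4 genes *H4c8* and *H4c6* are the same as each other.

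Promoters were read from RefSeq (GRCm38.p6), as 250 bases before to 50 bases after each gene's start, for 57 of the 70 members, of which *H2bc6* has 2 starts. Each motif was searched on both strands, and no motif contains another. CCAAT was found in 46 of 52 promoters of replication-dependent genes, 3 of 6 of replacement genes and 37.4% of all 32851 promoters. It was in each of the 14 H2A and 13 H2B promoters and in 3 of 9 H4 promoters. TATAAA was found in 30 of 52 replication-dependent promoters against 13.6% of all, and the octamer ATGCAAAT in 13 of 52, among them 6 H2A and 7 H2B promoters, against 1.74% of all. A match is a description of these windows and not of binding. Shown, 5′ to 3′ on the strand of the gene with matches to the 3 motifs in capitals, are a gene of the replication-dependent class that rose with its head-to-head partner, a gene of that class with a negative difference, and a pair of replacement genes.
H2bc15, chr13:21753826-21754125, + strand: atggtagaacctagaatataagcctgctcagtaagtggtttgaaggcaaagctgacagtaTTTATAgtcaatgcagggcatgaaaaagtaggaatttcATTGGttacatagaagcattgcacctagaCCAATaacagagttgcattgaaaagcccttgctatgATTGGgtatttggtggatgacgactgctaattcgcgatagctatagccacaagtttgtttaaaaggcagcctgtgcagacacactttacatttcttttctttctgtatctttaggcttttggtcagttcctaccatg
H3c15, chr3:96239078-96239377, - strand: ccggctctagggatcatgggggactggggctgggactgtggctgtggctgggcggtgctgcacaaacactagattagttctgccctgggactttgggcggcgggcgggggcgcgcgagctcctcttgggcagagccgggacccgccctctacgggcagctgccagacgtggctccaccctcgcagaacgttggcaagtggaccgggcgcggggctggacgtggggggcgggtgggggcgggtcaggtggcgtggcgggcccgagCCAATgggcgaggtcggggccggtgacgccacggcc
H3f3b, chr11:116024455-116024754, - strand: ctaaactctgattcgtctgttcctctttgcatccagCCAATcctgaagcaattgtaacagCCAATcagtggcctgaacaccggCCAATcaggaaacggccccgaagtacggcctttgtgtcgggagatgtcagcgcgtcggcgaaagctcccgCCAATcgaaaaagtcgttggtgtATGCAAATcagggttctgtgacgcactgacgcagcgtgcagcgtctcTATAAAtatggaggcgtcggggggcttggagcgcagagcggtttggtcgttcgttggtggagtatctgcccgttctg
H1f0, chr15:79027962-79028261, + strand: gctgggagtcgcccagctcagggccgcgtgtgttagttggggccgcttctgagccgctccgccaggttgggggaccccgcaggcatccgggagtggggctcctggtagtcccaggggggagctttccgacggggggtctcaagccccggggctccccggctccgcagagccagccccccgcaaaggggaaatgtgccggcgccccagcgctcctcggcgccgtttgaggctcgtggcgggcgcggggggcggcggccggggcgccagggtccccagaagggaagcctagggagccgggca
The window of *H2bc15* overlaps that of *H2ac15* (chr13:21753863-21754162, - strand), a gene that points away from it. *H3f3b* holds all 3 motifs although it is a replacement gene, and *H1f0* holds none of them.

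Libraries held 48064068 to 116206662 reads on genes, recovered from the TPM, and each was divided by a size factor, taken as the median over genes of the level relative to the geometric mean over libraries, to give scaled TPM. The factors ran 0.938 to 1.57 (median 1.204) in WT, 0.835 to 1.32 (median 1.10) in saline-treated and 0.219 to 1.32 (median 0.878) in ABE-treated libraries, and the ABE-treated female F109436 stood apart as the lowest. Differences are log2 fold changes of scaled TPM + 0.5 from limma, with sex as a covariate, 36 libraries in 1 fit and Benjamini-Hochberg adjustment over 16123 genes, they are given as value ± SE, and they understate the change of low genes. A gene was called at an adjusted p under 0.05. The mice were labelled as separate animals of each group. Histone genes resemble each other closely: a median of 65.3% of the 100-base windows of a tested H2A model, 42.9% of an H3, 36.4% of an H2B, 25.4% of an H4 and 0.792% of an H1 model occur in another member. Values of single H2A, H2B, H3 and H4 genes are therefore uncertain where counting could split or drop shared reads. The deposited TPM divide by gene length less 218 bp, which raises the level of short models, so an order of genes or families by scaled TPM is an order on this scale, which favours short models.

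Replication-dependent histone mRNA rose in *LMNA* G/G bone after saline, compared with WT. Of 59 tested genes, 43 were called higher and 0 lower, where 27.5% of all genes tested were called higher and 24.9% lower. The median log2 fold change of the class was 0.73 (quartiles 0.56 and 0.92), beside 0.02 over all genes tested, and 57 of the 59 genes had a positive value. The summed level of the 64 genes ran from 4407 to 12013 (median 7779) scaled TPM in WT, from 5843 to 18646 (median 12739) in saline-treated and from 1116 to 12905 (median 7829) in ABE-treated mice. Of the 12 saline-treated libraries, 11 lay above the WT median and 7 above the highest WT library, and the groups overlapped, since the saline-treated male M309451 was the lowest of its group and lay below 9 of 12 WT libraries. As a share of reads on genes, the class took 0.550 to 1.62 (median 1.03) percent in WT, 0.687 to 2.26 (median 1.55) percent in saline-treated and 0.0989 to 1.62 (median 0.865) percent in ABE-treated libraries. The calls depended on settings, with 2 genes called higher on TPM as deposited, 8 in males and 4 in females alone. Of all genes, 6.42%, 28.3% and 10.5% were called higher in these settings, in the same order. In bulk tissue, more cells that express a gene and more RNA per cell cannot be told apart.

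**Figure D1:**
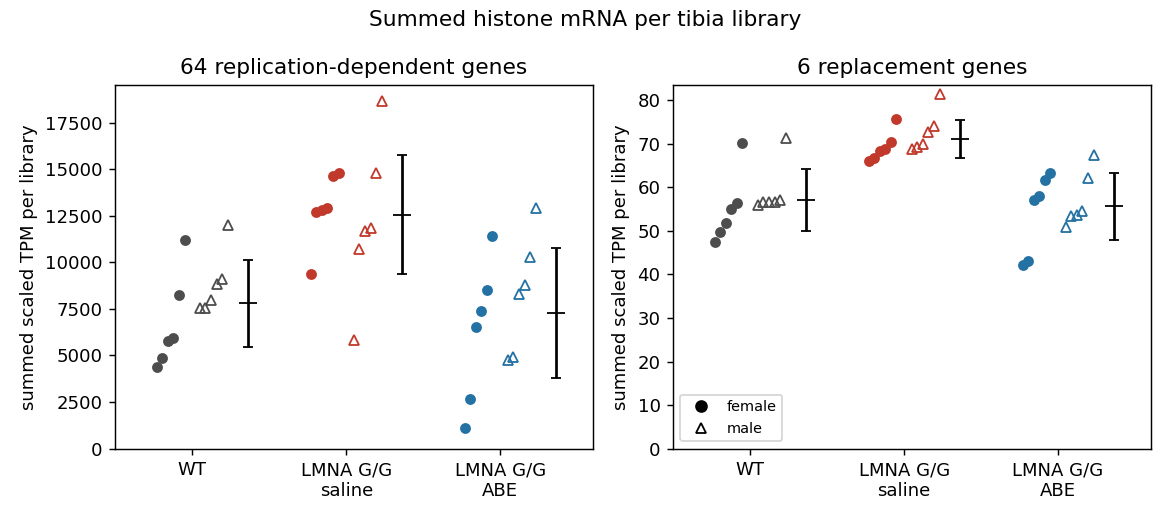
Summed scaled TPM (y axis) of the 64 replication-dependent genes (left) and the 6 replacement genes (right) in each of 12 libraries per group (x axis), with filled circles for females, open triangles for males, and a dash with bars for the mean and SD of the group. Saline-treated libraries have the highest mean in both panels, 12558 and 71.1 scaled TPM, and the lowest library of the left panel, at 1116, is the ABE-treated female F109436.

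Each of the 5 families held genes that were called higher. H2B genes had the highest median log2 fold change, 0.92 with 14 of 16 called higher, followed by H2A at 0.74 (12 of 15), H3 at 0.73 (7 of 11), H4 at 0.63 (8 of 12) and H1 at 0.49 (2 of 5). Differences between families were not tested. In scaled TPM, which weight short models, H4 genes made up a median of 43.3% of the class in WT, 40.4% in saline-treated mice and 41.3% in ABE-treated mice, and H2B genes 18.2%, 21.6% and 20.4%. *H4c8*, an H4 gene on chromosome 13 from 23531050 to 23531519 (GRCm38, 1 exon), ran from 229.9 to 581 (median 389) scaled TPM in WT, from 310.1 to 945 (median 629) in saline-treated and from 87.9 to 619.6 (median 404) in ABE-treated mice. Saline-treated mice were the highest group and the ABE-treated range covered that of WT, with a log2 difference of 0.73 ± 0.23 (adjusted p = 0.0084) in saline-treated against WT mice. *H2bc15*, an H2B gene with a model of the coding region alone, ran from 225 to 685 (median 421) scaled TPM in WT, from 352 to 1190.4 (median 768) in saline-treated and from 51.7 to 762 (median 437) in ABE-treated mice. It was higher in saline-treated than in WT mice by a log2 difference of 0.93 ± 0.29 (adjusted p = 0.0074), and the groups overlapped. Its head-to-head partner *H2ac15*, an H2A gene, ran from 207 to 534 (median 358) scaled TPM in WT, from 242 to 859 (median 537) in saline-treated and from 45.6 to 571 (median 332) in ABE-treated mice, with a log2 difference of 0.64 ± 0.28 (adjusted p = 0.0495).

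*H1f2*, the linker histone gene of highest mean scaled TPM, which was named after its values were seen, ran from 106 to 254 (median 165) scaled TPM in WT, from 139.5 to 292 (median 231) in saline-treated and from 45.7 to 244 (median 141) in ABE-treated mice. Its log2 difference between saline-treated and WT mice was 0.51 ± 0.20 (adjusted p = 0.029). The 10 replication-dependent genes with the highest mean scaled TPM were *H4c12*, *H4c6*, *H2bc15*, *H4c8*, *H2ac15*, *H4c2*, *H3c3*, *H3c11*, *H2bc13* and *H3c10*, with log2 fold changes of 0.46 to 0.96. Of these, 7 were called higher, and *H4c12* (adjusted p = 0.052), *H4c6* (adjusted p = 0.15) and *H3c3* (adjusted p = 0.069) were not. *H4c12* had the highest scaled TPM, with a median of 978 in WT, through a short model of 312 bp, but a median of 24742 reads in WT, fewer than the 41553 of *H4c6*. The largest called rises on the log2 scale belonged to *Hist1h2bp* at 1.06 ± 0.28 (adjusted p = 0.0022), *Hist1h4n* at 1.05, *H2ac11* at 1.05, *H2ac7* at 1.04 and *H2ac13* at 1.02. *Hist1h2bp* is an H2B gene of lower level, from 4.60 to 15.7 (median 9.77) scaled TPM in WT, from 9.40 to 30.5 (median 20.5) in saline-treated and from 0.851 to 20.3 (median 9.96) in ABE-treated mice. Of the replication-dependent genes and the replacement genes, 0 had groups that did not overlap, in any comparison, where 3.01% of genes in saline-treated against WT mice were higher and 3.65% lower without overlap, with 4.09% and 4.55% in ABE-treated against WT and 0.0186% and 0.0124% in ABE-treated against saline-treated mice.

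Of the 4 tested replacement genes, 2 were called higher and 0 lower in saline-treated against WT mice, beside 27.5% and 24.9% of all genes. Their median log2 fold change was 0.29, beside 0.73 for the replication-dependent genes. On TPM as deposited 0 of 4 were called higher, and with array weights 4, where 6.42% and 34.0% of all genes were. *H3f3a* and *H3f3b* encode the same protein, H3.3, which is laid down in chromatin outside replication. *H3f3a* ran from 14.1 to 29.8 (median 20.3) scaled TPM in WT, from 18.3 to 31.97 (median 26.6) in saline-treated and from 12.2 to 26.4 (median 20.95) in ABE-treated mice. It was higher in saline-treated than in WT mice by a log2 difference of 0.37 ± 0.13 (adjusted p = 0.018) and lower in ABE-treated than in saline-treated mice at -0.43 ± 0.13 (adjusted p = 0.0087), with overlapping groups in both. *H3f3b* ran from 23.1 to 33.3 (median 26.4) scaled TPM in WT, from 28.3 to 39.4 (median 30.002) in saline-treated and from 12.5 to 30.6 (median 20.8) in ABE-treated mice. Its log2 difference from WT was 0.20 ± 0.10 (adjusted p = 0.072) in saline-treated mice and -0.34 ± 0.10 (adjusted p = 0.0025) in ABE-treated mice, and that of ABE-treated from saline-treated mice was -0.54 ± 0.10 (adjusted p = 2.8e-04). The fall of *H3f3b* against WT was called neither with the S phase list nor with the cell type lists described further on as covariates.

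*H1f0* was called higher than WT in both *LMNA* G/G groups. It encodes H1.0, a linker histone known to build up in cells that have stopped dividing, and ran from 6.94 to 11.6 (median 7.92) scaled TPM in WT, from 7.75 to 19.9 (median 11.04) in saline-treated and from 8.48 to 16.9 (median 12.9) in ABE-treated mice. Its log2 difference from WT was 0.49 ± 0.11 (adjusted p = 5.0e-04) in saline-treated mice and 0.58 ± 0.11 (adjusted p = 2.6e-05) in ABE-treated mice, and the difference between the treatments was 0.10 ± 0.11 (adjusted p = 0.50). *H1f10*, another linker histone gene, ran from 0.634 to 1.37 (median 0.886) scaled TPM in WT, from 0.638 to 1.49 (median 1.05) in saline-treated and from 0.545 to 1.30 (median 0.871) in ABE-treated mice and was not called in the comparisons, with log2 fold changes of 0.18, -0.01 and -0.19. *H1f7* and *H1f8*, linker histones of germ cells, were at means of at most 0.0114 scaled TPM in a group and were not tested. The replication-dependent genes not tested were *H2ac1*, *H2ac18*, *H3c14*, *H1f6* and *Hist1h2br*, at means of at most 0.515 scaled TPM in a group. The summed level of replacement genes ran from 47.4 to 71.2 (median 56.5) scaled TPM in WT, from 66.2 to 81.6 (median 69.6) in saline-treated and from 42.1 to 67.4 (median 55.9) in ABE-treated mice.

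**Figure D2:**
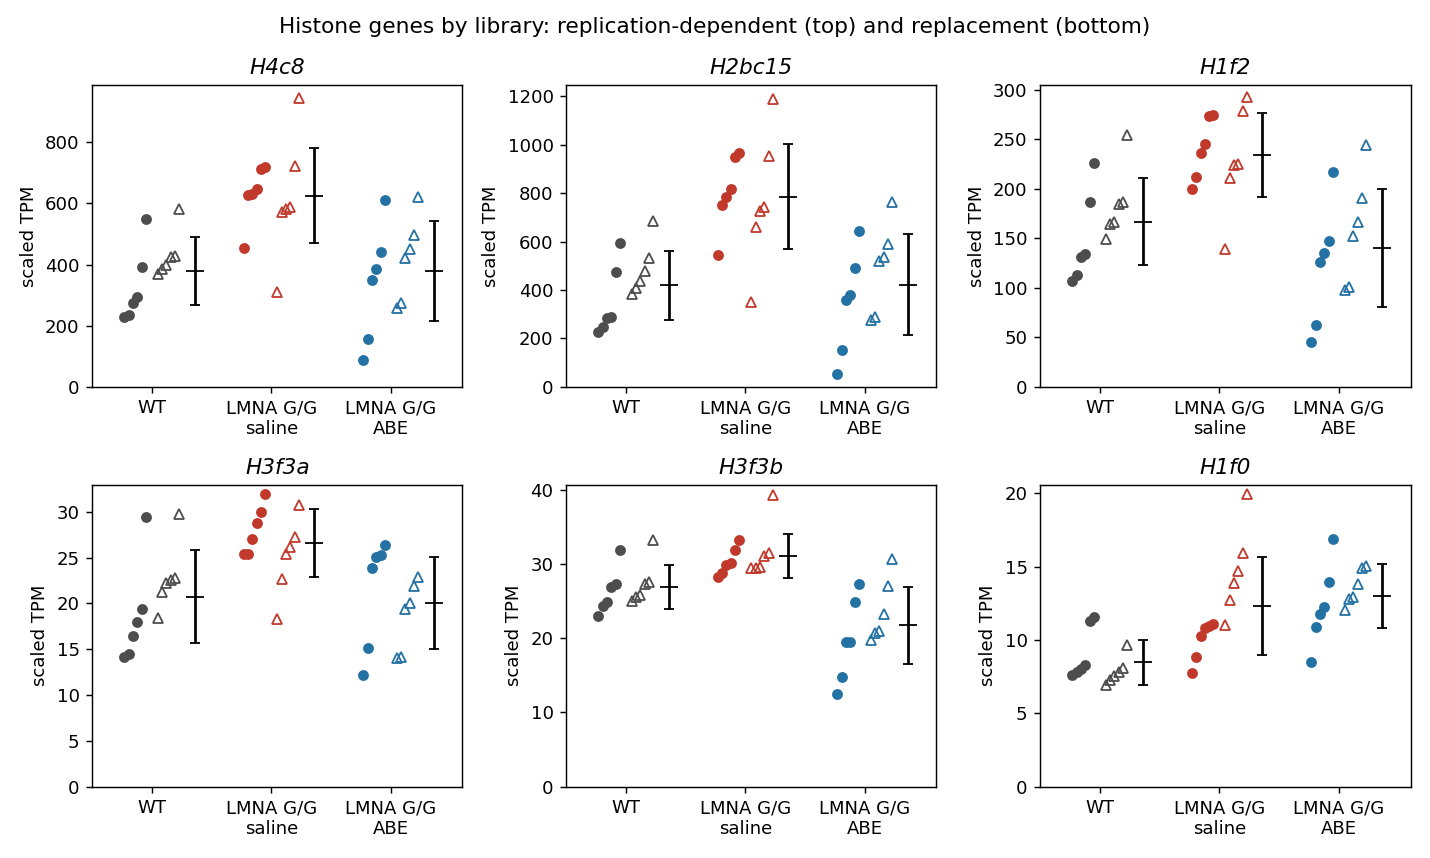
Scaled TPM (y axis, from 0) of 6 histone genes in each library by group (x axis), with filled circles for females, open triangles for males, and a dash with bars for mean and SD of 12 libraries. H4c8, H2bc15 and H1f2 are highest in saline-treated mice, at medians of 629, 768 and 231, whereas H1f0 has medians of 11.04 in saline-treated mice and 12.9 in ABE-treated mice.

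Between ABE-treated and WT mice, 0 of 59 replication-dependent genes were called higher and 5 lower, where 34.6% of all genes were called higher and 35.6% lower. A total of 5 members of the class had an unadjusted p under 0.05. The median log2 fold change was -0.21, beside -0.02 over all genes, and 5 of the 59 values were positive. The 5 called lower were *H2bc18* at -0.67 ± 0.25 (adjusted p = 0.016), *H2ac19* at -0.60, *H3c15* at -0.60, *H1f3* at -0.55 and *H2bc21* at -0.27, of which all but *H1f3* lie on chromosome 3. Windows of 100 bases that occur in another member made up 100% of *H2ac19* and 61.6% of *H3c15*. They made up 0% of *H2bc18* and *H2bc21* and 0.792% of *H1f3*. Without the ABE-treated female F109436 the median of the class was -0.01 and 4 genes were called lower, where 35.0% of all genes were. With the S phase or cell type covariates described further on, 56 and 41 genes were called higher, where 25.6% and 7.58% of all genes were. Genes called lower changed with single libraries, since without the ABE-treated female F1WT609535 there were 9 and without the ABE-treated male M409458 there were 8. Of the replacement genes, *H1f0* was called higher and *H3f3b* lower.

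In the direct comparison of treatments, 59 of 59 replication-dependent genes were called lower in ABE-treated than in saline-treated *LMNA* G/G bone and 0 higher, where 25.1% of all genes were called lower and 22.9% higher. The median log2 fold change was -0.97, beside -0.02 over all genes, with family medians between -0.99 in H2A and -0.91 in H4. With this fall, 41 of 42 S phase genes, 25 of 25 genes of G2 and mitosis, 12 of 14 erythroid and 13 of 16 neutrophil markers were called lower, and 16 of 18 skeletal muscle markers higher. With the S phase list or 4 cell type lists as covariates 0 histone genes of the class were called lower, and in males alone 4, as described further on. Of all genes, 0.341%, 2.72% and 10.5% were called lower in these settings, in the same order. The log2 difference of *H4c8* was -0.85 ± 0.23 (adjusted p = 0.004) and that of *H2bc15* -1.10 ± 0.29 (adjusted p = 0.0031). The largest falls on the log2 scale were those of *Hist1h2bp* at -1.19 ± 0.28 (adjusted p = 0.0017), *H2bc18* at -1.14, *H2bc13* at -1.13, *H2ac7* at -1.12 and *H2ac13* at -1.11. Without F109436, 58 genes were called lower with a median of -0.74, where 21.7% of all genes were called lower, and 54 genes were then called higher in saline-treated against WT mice, where 29.7% of all genes were. The comparisons share groups, so their values are not independent of each other.

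**Figure D3:**
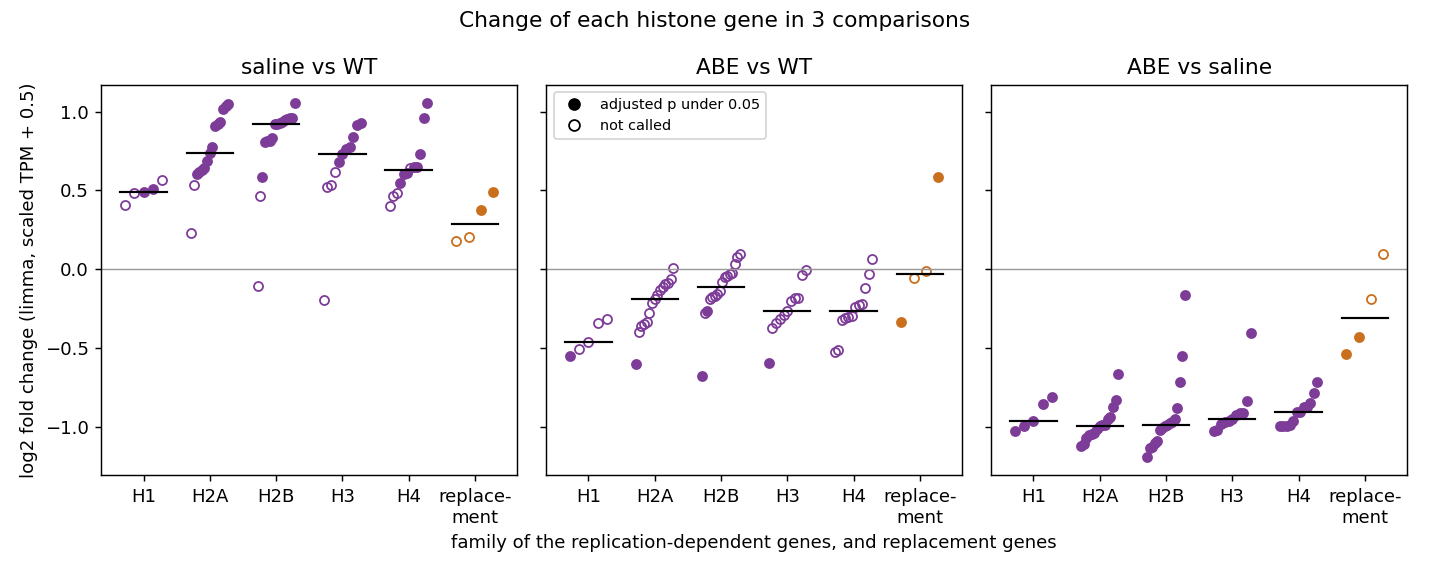
Log2 fold change (y axis) of each of 59 replication-dependent genes by family and of 4 replacement genes (x axis) in the 3 comparisons, with filled points at an adjusted p under 0.05 and lines at group medians. Replication-dependent genes lie mostly above 0 in saline vs WT (median 0.73), near -0.21 in ABE vs WT and below 0 in ABE vs saline (median -0.97).

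A pair of replication-dependent genes had negative values in saline-treated against WT mice, *H3c15* at -0.19 ± 0.09 (adjusted p = 0.081) and *H2bc21* at -0.10 ± 0.06 (adjusted p = 0.17). Both lie in the cluster of chromosome 3 and both are at low levels. *H3c15*, an H3 gene, ran from 1.04 to 2.17 (median 1.63) scaled TPM in WT, from 0.912 to 1.92 (median 1.41) in saline-treated and from 0.459 to 1.46 (median 0.825) in ABE-treated mice. *H2bc21*, an H2B gene known to be read in olfactory neurons that no longer divide, ran from 1.02 to 1.53 (median 1.34) scaled TPM in WT, from 0.988 to 1.42 (median 1.17) in saline-treated and from 0.664 to 1.53 (median 1.0003) in ABE-treated mice. Its model holds no stem loop, whereas *H3c15* has the loop shown above and runs 377 bases past it. Both were called lower in ABE-treated than in saline-treated mice, at -0.40 and -0.16.

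Features that did not enter the choice of genes were set beside the values as a description. The 8 tested genes of chromosome 3 had a median log2 fold change of 0.50 in saline-treated against WT mice and the 51 of chromosome 13 one of 0.76. By gene model, the medians were 0.81 for the 22 tested genes whose model ends at the loop, 0.79 for 10 with the coding region alone, 0.63 for 18 with a model past the loop and 0.60 for 9 with another model without it. All 4 kinds of model held genes that were called higher. In ABE-treated against saline-treated mice these medians were -0.97, -1.08, -0.91 and -0.95, in the same order. There were 13 pairs of members with starts less than 1000 bases apart that point away from each other, at 176 to 660 bases. Of these, 12 were an H2A with an H2B gene. The widest, at 660 bases, was the H2B gene *H2bc9* with the H3 gene *H3c7*. *H2ac8* and *H2bc8* had 0.93 and 0.93 in saline-treated against WT mice, whereas *H2ac20* and *H2bc21* had 0.54 and -0.10, and these pairs were picked after their values were seen.

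Genes of DNA replication were mostly not called in saline-treated against WT mice, at shares below those of all genes in both directions. Of 42 tested S phase genes, 1 was called higher and 6 lower in saline-treated against WT mice, beside 27.5% and 24.9% of all genes. The median log2 fold change of the list was -0.13. *Pold2*, a subunit of DNA polymerase delta, was the one called higher, at 0.25 ± 0.05 (adjusted p = 2.3e-04), and the largest falls were those of its catalytic subunit *Pold1* at -0.54, *Pola2* at -0.44 and *Pole* at -0.42. *Rrm2*, which makes deoxynucleotides, ran from 11.4 to 28.5 (median 22.6) scaled TPM in WT, from 8.45 to 27.3 (median 20.8) in saline-treated and from 2.11 to 21.2 (median 11.9) in ABE-treated mice. *Pcna*, the sliding clamp of replication, had a log2 difference of 0.23 ± 0.18 (adjusted p = 0.29) in saline-treated against WT mice. In ABE-treated mice 40 of 42 were called lower than in WT (median -0.65) and 41 called lower than in saline-treated mice (median -0.46). Of all genes, 35.6% and 25.1% were called lower in these 2 comparisons. *Tk1* had the largest fall against WT, -1.07 ± 0.17 (adjusted p = 1.1e-06), and *Rrm2* the largest against saline-treated mice, -0.88 ± 0.24 (adjusted p = 0.004). Genes of G2 and mitosis numbered 25, of which 0 were called higher and 1 lower in saline-treated against WT mice and 25 lower in ABE-treated against WT mice, with the proliferation marker *Mki67* at -0.07 (adjusted p = 0.81) and -0.93 (adjusted p = 6.4e-04).

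The level of replication-dependent histones was then set against S phase genes library by library. The log2 of the summed histone level less the mean log2 level of the S phase list ran from 10.4 to 11.3 (median 10.9) in WT, from 11.2 to 11.96 (median 11.7) in saline-treated and from 9.54 to 11.7 (median 11.4) in ABE-treated mice. It was lowest in F109436, and the ABE-treated median lay between those of the other groups. With the mean of the S phase list as a covariate, which was added after the data were seen, 57 of 59 replication-dependent genes were called higher in saline-treated than in WT mice (median 0.93), where 30.5% of all genes were. In ABE-treated against WT mice the direction turned, with 56 called higher, 1 lower and a median of 0.96, where 25.6% of all genes were called higher and 20.4% lower. Between ABE-treated and saline-treated mice 0 were then called lower and 0 higher (median -0.00229), with 2 at an unadjusted p under 0.05, where 0.341% of all genes were called lower and 0.447% higher. The S phase list fell in ABE-treated mice against both other groups, so its level and group cannot be fully told apart in that fit.

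**Figure D4:**
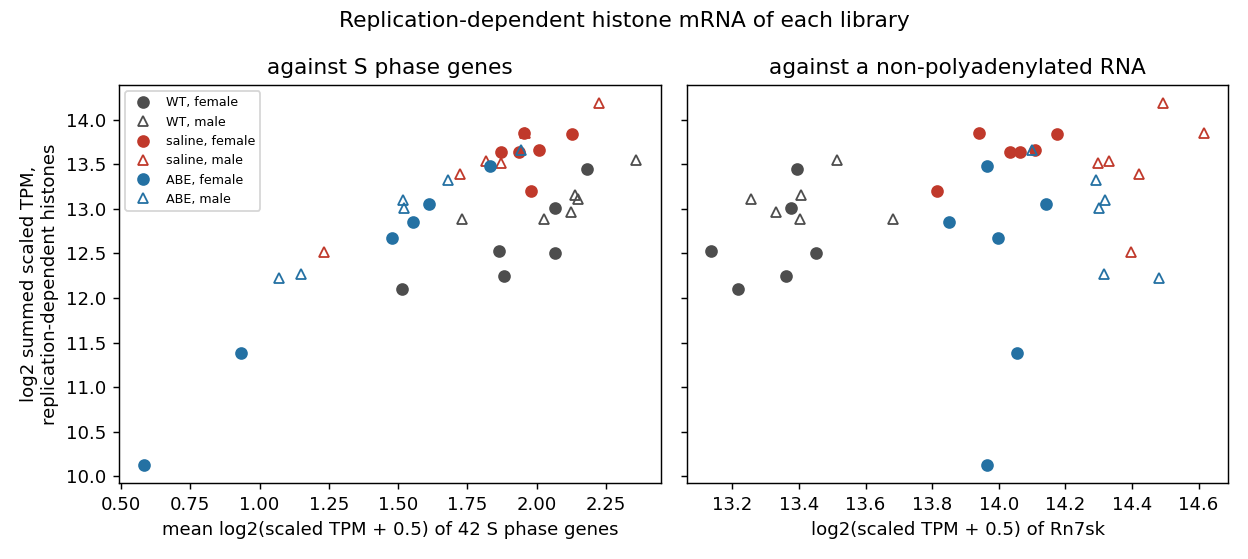
Log2 of the summed scaled TPM of 64 replication-dependent genes (y axis) in each of 36 libraries, against the mean log2 level of 42 S phase genes (left, x axis) and the log2 level of Rn7sk (right, x axis), with filled circles for females, open triangles for males and colours for groups. The lowest point of both panels, at 10.1 on the y axis, is the ABE-treated female F109436, and in the right panel no LMNA G/G library shares the Rn7sk range of WT.

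Genes that make and process histone mRNA were called in both directions, in saline-treated against WT mice at shares near those of all genes. Of 20 tested, 4 were called higher and 6 lower in saline-treated against WT mice (median -0.03), 4 and 14 in ABE-treated against WT (median -0.21), and 1 and 12 in ABE-treated against saline-treated mice (median -0.18). Over all genes, the shares called higher and lower were 27.5% and 24.9%, 34.6% and 35.6%, and 22.9% and 25.1%, in the same order of comparisons. *Slbp*, which binds the stem loop, ran from 1.97 to 4.03 (median 3.20) scaled TPM in WT, from 1.45 to 3.64 (median 2.9998) in saline-treated and from 0.686 to 2.87 (median 2.02) in ABE-treated mice. It had a log2 difference of -0.10 ± 0.14 (adjusted p = 0.58) in saline-treated against WT mice and was lower in ABE-treated than in saline-treated mice, at -0.52 ± 0.14 (adjusted p = 0.0043). *Lsm10*, a protein of the U7 particle that cuts histone mRNA, was higher than WT in saline-treated, at 0.29 ± 0.04 (adjusted p = 2.3e-06), and ABE-treated mice, at 0.19 ± 0.04 (adjusted p = 3.1e-04). *Snrpd3* and *Snrpb*, Sm proteins of the same and of splicing particles, were higher in saline-treated mice by 0.46 and 0.25. The largest falls in saline-treated mice were those of *Srrt* at -0.48 ± 0.07 (adjusted p = 6.5e-07), a factor of the 3′ ends of capped RNA, of *E2f1* at -0.44, which drives entry into S phase, and of *Hinfp* at -0.32, a factor of H4 gene transcription. *Upf1*, which takes part in histone mRNA decay, fell by 0.23 on the log2 scale. In ABE-treated against WT mice, the falls of *E2f1* at -0.99, *Ccne1* at -0.89 and *Cdk2* at -0.68 were the largest, and *Sympk*, a scaffold of the cleavage complex, was called higher against saline-treated mice at 0.21.

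Histone chaperones and exchange complexes counted 34 tested genes, of which 8 were called higher and 11 lower in saline-treated against WT mice, 7 and 23 in ABE-treated against WT, and 1 and 22 in ABE-treated against saline-treated mice, with medians of -0.03, -0.25 and -0.22. In saline-treated against WT mice these shares were near the 27.5% and 24.9% of all genes, while 35.6% and 25.1% of all genes were called lower in the other 2 comparisons. The highest rise in saline-treated mice was that of *Rbbp7*, a histone binding protein of several chromatin complexes, which ran from 4.29 to 5.79 (median 4.95) scaled TPM in WT, from 6.06 to 7.27 (median 6.93) in saline-treated and from 5.15 to 7.43 (median 5.997) in ABE-treated mice, with a log2 difference of 0.41 ± 0.05 (adjusted p = 5.9e-08). *Tonsl*, which reads new H4 on replicated DNA, had the largest fall, -0.54 ± 0.10 (adjusted p = 5.9e-05), followed by *Hjurp*, the chaperone of the centromere H3 variant *Cenpa*, at -0.48 and *Cenpa* at -0.43. In ABE-treated against WT mice *Cenpa* was at -1.04, *Tonsl* at -0.89 and *Chaf1a*, the large subunit of the replication-coupled assembly factor, at -0.80. *Asf1b*, the H3-H4 chaperone of dividing cells, had the largest fall in ABE-treated against saline-treated mice, -0.70 ± 0.18 (adjusted p = 0.0033), and *Ubn2*, a subunit of the complex that deposits H3.3, was the 1 gene called higher, at 0.15.

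Of the 9 other histone genes that lie outside the names searched, which were added after the files were seen, 4 were called higher and 2 lower in saline-treated against WT mice, 1 and 5 in ABE-treated against WT, and 0 and 6 in ABE-treated against saline-treated mice. The shares of all genes called higher and lower were 27.5% and 24.9%, 34.6% and 35.6%, and 22.9% and 25.1%, in that order. *H2ax*, whose protein marks DNA breaks, ran from 48.1 to 119 (median 82.01) scaled TPM in WT, from 47.9 to 164 (median 107) in saline-treated and from 10.6 to 119 (median 63.6) in ABE-treated mice, with log2 differences of 0.38 ± 0.25 (adjusted p = 0.20) in saline-treated against WT and -0.94 ± 0.25 (adjusted p = 0.0036) in ABE-treated against saline-treated mice. *H2bu2*, an H2B gene, ran from 12.4 to 45.5 (median 26.2) scaled TPM in WT, from 24.3 to 81.01 (median 50.5) in saline-treated and from 2.29 to 54.7 (median 24.9) in ABE-treated mice, with a log2 difference of 1.01 ± 0.31 (adjusted p = 0.0076) against WT in saline-treated mice. *Macroh2a2*, an H2A variant of silent chromatin, was higher than WT in both *LMNA* G/G groups, at 0.82 ± 0.09 (adjusted p = 5.5e-09) and 0.70 ± 0.09 (adjusted p = 4.5e-08), whereas *Macroh2a1* was lower in both, at -0.29 and -0.41.

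Markers of other cells differed in how they were called, where 27.5% of all genes were called higher and 24.9% lower in saline-treated against WT mice and 22.9% higher and 25.1% lower in ABE-treated against saline-treated mice, and each list is given for both comparisons in that order. Sums of a list cover every listed gene found, tested or not. The erythroid list, of cells whose precursors divide, summed to 163 to 459 scaled TPM in WT, 139 to 466 in saline-treated and 51.7 to 342 in ABE-treated mice. Of its 14 tested genes 0 higher and 1 lower were called in saline-treated against WT mice and 1 higher and 12 lower in ABE-treated against saline-treated mice, with *Slc4a1*, the anion exchanger of red cells, at -0.04 and -1.16. The neutrophil list had 4 higher and 0 lower of 16 and 0 higher and 13 lower, and summed to 832 to 2686 scaled TPM in WT, 1107 to 3948 in saline-treated and 382 to 4258 in ABE-treated mice. The B cell list had 0 higher and 12 lower of 14 and 0 higher and 2 lower, and summed to 42.1 to 96.4 scaled TPM in WT, 21.996 to 63.5 in saline-treated and 15.7 to 70.1 in ABE-treated mice. The skeletal muscle list had 14 higher and 0 lower of 18 and 16 higher and 0 lower, and summed to 256 to 3818 scaled TPM in WT, 424 to 9849 in saline-treated and 1382 to 16246 in ABE-treated mice. The osteocyte list had 9 higher and 0 lower of 10 and 0 higher and 2 lower, and summed to 25.6 to 66.5 scaled TPM in WT, 193 to 524 in saline-treated and 196 to 380.4 in ABE-treated mice. The osteoclast list had 9 higher and 1 lower of 11 and 0 higher and 8 lower, the osteoblast list 4 higher and 0 lower of 10 and 1 higher and 2 lower, and the T cell list 0 higher and 1 lower of 4 and 0 higher and 3 lower. No tested marker of these lists was at 0 in any library. The erythroid gene *Alas2*, the B cell gene *Cd79a* and the neutrophil gene *S100a9* had lowest values of 7.67, 2.68 and 122 scaled TPM in any library. F109436 had the lowest sum of replication-dependent histones, of the S phase list and of the erythroid, neutrophil and B cell lists among the 36 libraries, and F509471 the next lowest of the first 3 of these.

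With the means of the erythroid, B cell, neutrophil and skeletal muscle lists as covariates, 54 of 59 replication-dependent genes were called higher in saline-treated than in WT mice (median 0.77), where 10.2% of all genes were. The direction in ABE-treated against WT mice turned, with 41 called higher and a median of 0.62, where 7.58% of all genes were called higher, and 0 were called lower in ABE-treated against saline-treated mice (median -0.17), with 6 at an unadjusted p under 0.05, where 2.72% of all genes were called lower. In ABE-treated against WT mice, the muscle list had 18 higher and 0 lower of 18, and the erythroid list 1 and 12 of 14. The B cell list had 0 and 12 of 14 and the neutrophil list 0 and 4 of 16. Of all genes, 34.6% were called higher and 35.6% lower. List levels and group therefore cannot be fully told apart in the fit with these covariates. The part that the numbers of dividing blood cells have in the histone levels was not tested beyond these fits. *Rn7sk*, an abundant RNA without a poly(A) tail that is not a histone transcript, ran from 9004 to 13152 (median 10700.5) scaled TPM in WT, from 14397 to 25110.5 (median 19327) in saline-treated and from 14769 to 22850.5 (median 17829) in ABE-treated mice. It was higher than WT in saline-treated mice by a log2 difference of 0.85 ± 0.05 (adjusted p = 1.3e-13) and in ABE-treated mice by a log2 difference of 0.77 ± 0.05 (adjusted p = 5.4e-13), and no *LMNA* G/G library overlapped a WT library. With *Rn7sk* as a covariate, added after the data were seen, 0 replication-dependent genes were called in saline-treated against WT mice while the median was 0.82, with 0 at an unadjusted p under 0.05 and 0.0434% of all genes called higher. In that fit 59 were called lower in ABE-treated against saline-treated mice, where 25.9% of all genes were. Since *Rn7sk* separates WT from the other groups, its level and genotype cannot be told apart in that fit. Small noncoding RNA genes long enough to be measured, a set from which *Rn7sk* was not taken out, numbered 61. Of these, 14 were called higher and 21 lower in saline-treated against WT mice, beside 27.5% and 24.9% of all genes.

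On TPM as deposited, without scaling, 2 replication-dependent genes were called higher and 1 lower in saline-treated against WT mice, with a median of 0.53 beside -0.13 over all genes, of which 6.42% were called higher and 23.1% lower. ABE-treated mice had 28 called lower than WT and 59 lower than saline-treated mice on that scale, where 58.7% and 40.8% of all genes were called lower. The calls against WT depended on the scaling of libraries, while the fall in ABE-treated against saline-treated mice was called for 59 genes on either scale.

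**Figure D5:**
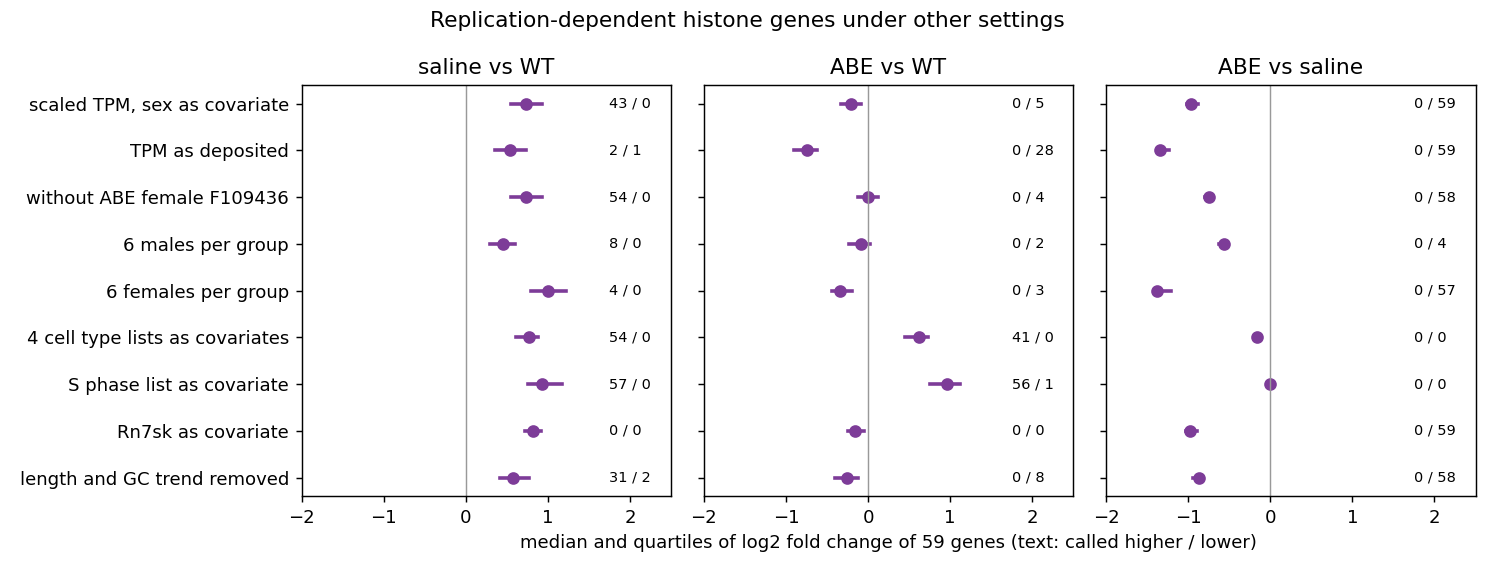
Median (points) and quartiles (lines) of the log2 fold change (x axis) of 59 replication-dependent genes under 9 settings (y axis) in the 3 comparisons, with the numbers called higher and lower at the right. In ABE vs WT the median runs from -0.75 on deposited TPM to 0.96 with the S phase list as a covariate, and in ABE vs saline it is near 0 with that covariate.

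The sexes were compared last. In females the summed level of replication-dependent genes ran from 4407 to 11189 (median 5853) scaled TPM in WT, from 9378 to 14787 (median 12850.5) in saline-treated and from 1116 to 11434 (median 6968) in ABE-treated mice, and in males from 7552 to 12013 (median 8426), 5843 to 18646 (median 11745) and 4779 to 12905 (median 8533). In saline-treated against WT mice, fits on 6 females a group called 4 of 59 genes higher (median 0.999, background 10.5%) and fits on 6 males 8 (median 0.46, background 28.3%). In ABE-treated against saline-treated mice 57 were called lower in females (median -1.38, background 14.2%) and 4 in males (median -0.56, background 10.5%). Among ABE-treated females were F109436 and F509471, the lowest and next lowest of the 36 libraries at 1116 and 2679 scaled TPM. The fit on females alone was not run without F109436. The difference between the sexes itself, tested as an interaction in limma, was called for 0 replication-dependent genes and for 0 replacement genes in the 3 comparisons, with 0 replication-dependent genes at an unadjusted p under 0.05, where 1.58% of all genes were called for saline-treated against WT and 0.0558% for ABE-treated against saline-treated mice and 3.75% for ABE-treated against WT mice. The median of the male less the female value over the 59 genes was -0.53 in saline-treated against WT and 0.79 in ABE-treated against saline-treated mice. *H1f0* had the smallest p of the members, with a log2 difference in saline-treated against WT mice of 0.84 in males and 0.13 in females, a difference of 0.71 ± 0.19 (adjusted p = 0.052).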

How the data were processed

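Stranded libraries were made from poly(A)-selected RNA of 36 tibiae. The authors aligned reads with STAR (2.73a in their processing notes) to GRCm38, counted them per gene of GENCODE M24 with QoRTs and deposited TPM in 1 table, with the length and the GC content of each gene, the latter as a fraction. How TPM were computed, the strand setting of counting and the treatment of reads that match several genes are not given in the sources used here.

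Reads were recovered from the deposited TPM as whole multiples (100% of values above 0 within 0.01 reads, at length less 218 bp). TPM were divided by median ratio size factors from 23632 genes above 0 in each library. The 16123 genes with a mean of 0.5 TPM or more were tested with limma 3.58.1 (R 4.3.3) on log2(scaled TPM + 0.5), with a mean-variance trend, group and sex in the model, and Benjamini-Hochberg adjustment. The fit was also run on simulated data with independent normal noise for each gene. That setting does not cover genes that vary together between libraries. Named members were the tested replacement genes, the 10 replication-dependent genes of highest level and the 5 largest called rises and falls in each comparison. Of the other lists, they were the 3 genes of highest level and, for histone mRNA production, chaperones and S phase, the 3 largest called rises and falls. Members and gene lists were chosen with earlier results of these data known. Alternatives were TPM as deposited, quantile normalization, pseudocounts of 0.1 and 1, a minimum of 5 TPM or none, array weights, limma-voom on recovered reads, reads scaled to library total, no sex covariate, each sex alone, only the 2 groups compared, cell type covariates, and F109436 or each library left out. The S phase, *Rn7sk*, and length and GC alternatives were added after the data were seen. Sequences were read with Python 3.11.15.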

Additional observations from a re-analysis of the deposited data

How the results depend on the processing

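Leaving out 1 library at a time gave 35 to 54 replication-dependent genes called higher in saline-treated against WT mice (35 without the WT female 602F, 54 without F109436) and 0 to 1 lower, 4 to 9 called lower in ABE-treated against WT mice, and 58 to 59 in ABE-treated against saline-treated mice. For replacement genes it gave 2 to 3 higher in saline-treated against WT, 1 higher and 1 lower in ABE-treated against WT, and 2 to 3 lower in ABE-treated against saline-treated mice. In saline-treated against WT mice, replication-dependent calls higher numbered 2 on TPM as deposited, 8 in males, 4 in females and 0 with *Rn7sk* as a covariate, calls lower 1 on TPM as deposited, with quantile normalization or with array weights, and 2 with the trend of length and GC content removed. Replacement calls higher numbered 0 on TPM as deposited and with *Rn7sk*, 4 with array weights, and 1 in females and with the length and GC trend removed. Of all genes, 6.42% were called higher on TPM as deposited, 28.3% in males, 10.5% in females, 0.0434% with *Rn7sk* and 34.0% with array weights. On TPM as deposited, 23.1% were called lower. In ABE-treated against WT mice, replication-dependent calls higher numbered 41 with the cell type covariates and 56 with the S phase covariate, and calls lower 28 on TPM as deposited, 3 at a minimum mean of 5 TPM and in females, 2 in males, 8 with the length and GC trend removed, 1 with the S phase covariate and 0 with the cell type or *Rn7sk* covariates. Replacement calls higher were 0 on TPM as deposited and with *Rn7sk* and 2 without a filter, and calls lower 3 on TPM as deposited and 0 in males and with the cell type, S phase or *Rn7sk* covariates. Of all genes, 7.58% were called higher with the cell type covariates and 25.6% with the S phase covariate. Calls lower took 58.7% of all genes on TPM as deposited and 20.4% with the S phase covariate. In ABE-treated against saline-treated mice, replication-dependent calls lower numbered 0 with the cell type or S phase covariates and 4 in males, and replacement calls lower 1 with the cell type covariates or in either sex alone and 0 with the S phase covariate. Of all genes, 2.72% were called lower with the cell type covariates, 0.341% with the S phase covariate, 10.5% in males and 14.2% in females. Shares over all genes are not given here for the other settings. The sex difference of saline-treated against WT mice was called for 1 replacement gene, *H1f0*, at a pseudocount of 0.1 and by limma-voom. On TPM as deposited, the ratio of the summed replacement level was 1.07 for saline-treated to WT, 0.701 for ABE-treated to WT and 0.655 for ABE-treated to saline-treated mice, against 1.25, 0.975 and 0.783 on scaled TPM.

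Of 1215 values of 24 named members under 17 alternatives, 977 stayed on their side of the threshold, 43 of them uncalled values that changed sign, 143 lost the call, 52 gained it in the same direction, and 43 turned their direction and were called in at least 1 of both fits, all of the last with the cell type or S phase covariates. With the cell type covariates, log2 differences in ABE-treated against WT mice were *H1f3* 0.33, *H2ac13* 0.77, *H2ac15* 0.52, *H2ac7* 0.74, *H2bc13* 0.68, *H2bc15* 0.69, *H2bc18* 0.0980, *H3c10* 0.68, *H3c11* 0.63, *H3c3* 0.57, *H3f3a* 0.34, *H3f3b* 0.14, *H4c12* 0.58, *H4c2* 0.68, *H4c8* 0.57 and *Hist1h2bp* 0.78, and in ABE-treated against saline-treated mice *H2bc21* 0.0118. With the S phase covariate they were *H1f3* 0.61, *H2ac13* 1.18, *H2ac15* 0.93, *H2ac19* 0.14, *H2ac7* 1.26, *H2bc13* 1.08, *H2bc15* 1.12, *H2bc18* 0.45, *H3c10* 1.05, *H3c11* 0.95, *H3c3* 0.98, *H3f3a* 0.49, *H4c12* 0.94, *H4c2* 1.04, *H4c6* 0.73, *H4c8* 0.93 and *Hist1h2bp* 1.13 in ABE-treated against WT mice, and *H2ac15* 0.0394, *H2bc21* 0.00503, *H3c10* 0.0350, *H3c11* 0.0287, *H3c3* 0.11, *H3f3a* 0.0152, *H4c12* 0.0574, *H4c2* 0.14 and *H4c6* 0.0219 in ABE-treated against saline-treated mice. The cause was not tested. The study describes the mice as littermates, but the labels give no litter. Replicate numbers were given in accession order and no mouse is shared between groups, so no paired analysis was possible. Depth limits the 7 members under 0.5 TPM, and near-identical copies limit values of single members.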
